A study of Mus musculus with 12 samples.

Results

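The Wnt pathway genes described here are 37 listed ligands, secretion factors, receptors, transducers, inhibitors, transcription factors and targets of Wnt signalling, measured in the cardiac ventricle of mouse embryos at embryonic day 16.5. They were chosen by name and not by their values. Of the 37 genes, 36 had a probe set naming only that gene, among 18193 such genes on the array; Tcf7 had none in the annotation used and was not analysed here. RNA of 12 ventricles was hybridised to 12 single-colour arrays in 4 groups of 3. These were wild type, ventricles without Hdac2 (Hdac2-null), ventricles without Hopx (Hopx-null) and ventricles without either (double-null). Hdac2 is an enzyme that removes acetyl groups from histones. Hopx is a homeodomain protein of heart muscle that acts through partner proteins rather than by contacting DNA. The labels call the deletions null and give no allele, strain or Cre line, and no treatment. The design describes 3 independent ventricles per genotype. The question of the series is what deficiency of Hdac2 and Hopx does to gene expression in the embryonic heart.

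Wnt proteins are secreted signals that are lipid-modified by Porcn and carried to the cell surface by Wls. They bind Frizzled receptors (Fzd1 to Fzd8 here) together with the co-receptors Lrp5 and Lrp6. Without a Wnt signal, a complex of Axin, Apc and a glycogen synthase kinase marks beta-catenin, the product of Ctnnb1, for destruction. With a signal, Dishevelled proteins (Dvl1, Dvl2, Dvl3) relay the stop to that complex, and beta-catenin enters the nucleus and acts through the TCF/LEF factors Lef1, Tcf7, Tcf7l1 and Tcf7l2. Sfrp1, Sfrp2 and Wif1 bind Wnts outside the cell, Dkk2 acts at Lrp co-receptors, and Nkd1 acts inside the cell on Dishevelled. Znrf3 and Rnf43 remove Frizzled receptors from the cell surface, which Rspo3 counteracts. In the heart the pathway is known for roles in progenitor growth, cushion and valve formation and cardiomyocyte proliferation.

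TCF/LEF factors recognise DNA with the core CTTTGAT or CTTTGAA. RefSeq promoter windows of assembly GRCm38.p6, each from 250 bases before to 50 bases after a gene's start, were found for 23 of the 37 genes (31 windows) and were searched on both strands for these letters. CTTTGAT was present in 1 of the 31 windows (3.23%), that of the ligand Wnt11, and in 3.73% of all 32851 windows. CTTTGAA was present in 1 of the 31 windows, that of the kinase Gsk3a, and in 5.14% of all windows. Both matches lay on the opposite strand to the gene, so the capitals in the printed strand read as the reverse complement. The 250 bases before each start are shown because they are where the pathway's own DNA motif met its genes in this search. The Wnt11 stretch is chr7:98834862-98835111 on the + strand, with the match starting 51 bases before the start. The Gsk3a stretch is chr7:25237852-25238101 on the - strand, with the match starting 158 bases before the start. A match of 7 letters is a description and not a binding site.

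Wnt11: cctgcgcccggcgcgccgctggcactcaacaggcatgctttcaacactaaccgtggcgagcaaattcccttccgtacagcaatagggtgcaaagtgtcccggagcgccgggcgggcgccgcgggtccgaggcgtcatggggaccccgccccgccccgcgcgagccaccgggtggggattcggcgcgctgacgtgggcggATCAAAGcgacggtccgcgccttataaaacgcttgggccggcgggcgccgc

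Gsk3a: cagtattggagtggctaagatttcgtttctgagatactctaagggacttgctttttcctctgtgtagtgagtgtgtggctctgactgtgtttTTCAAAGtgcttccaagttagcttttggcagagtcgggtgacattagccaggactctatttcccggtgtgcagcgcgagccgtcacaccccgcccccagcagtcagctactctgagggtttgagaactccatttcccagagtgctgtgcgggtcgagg

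Signals are the deposited linear values, and a floor of 82.5 signal units marks the level below which values were not read as ordered. Between 37.51% and 37.89% of probe sets exceeded it on each array. The targeted genes followed the labels: the strongest Hdac2 probe set read 4.04 to 4.32 where Hdac2 was absent and 4442 to 5683 elsewhere. The strongest Hopx probe set read 1656 to 2066 where Hopx was absent and 8577 to 12240.1 elsewhere. All 9 cardiomyocyte markers were above the floor on all 12 arrays, with a summed signal of 263219 to 270851 over the 12 arrays, and none of the 4 lung or 4 thymus markers was. All 6 atrial markers were above the floor on at least 1 array, with a summed signal of 51334 to 72739. The female-specific transcript Xist exceeded the floor in wild type 1, in wild type 2 and in the null arrays numbered 1, so the sexes were not balanced.

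Array wild type 1, and for some genes Hopx-null 1, stood apart on secondary probe sets of the Wnt genes. For each gene the probe set brightest on average was chosen, and 17 further probe sets of these genes were above the floor on 10 or more arrays. Of those 17, 7 had their lowest signal on wild type 1 and 3 on Hopx-null 1, with 2 each on Hdac2-null 3 and double-null 2. Of 24 chosen probe sets the counts were 5 on wild type 1 and 3 on Hopx-null 1. They were 5 on Hopx-null 2 and 4 on Hopx-null 3, so by this count Hopx-null 1 does not stand out. The third probe set of Ctnnb1 read 107.7 on wild type 1, 231.9 on Hopx-null 1 and 283.8 to 580.2 on the other arrays. The second of Tcf7l2 read 138.5 and 44.3 on these arrays and 277.1 to 570.5 on the others, and the second of Fzd4 read 287.2 and 248.9 against 406.3 to 873.9. The third probe set of Apc was low on wild type 1 alone, at 192.2, with 481.6 on Hopx-null 1. The ratio of the 3′ to the 5′ probe set of Gapdh, a measure of RNA integrity, was 2.51 on wild type 1, 2.06 on Hopx-null 1 and 1.79 to 2.11 on the other arrays. Its part in the probe set values was not tested. Several differences are also given without these arrays; those values were chosen after the data were seen, and those without an adjusted p have no test.

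**Figure D1:**
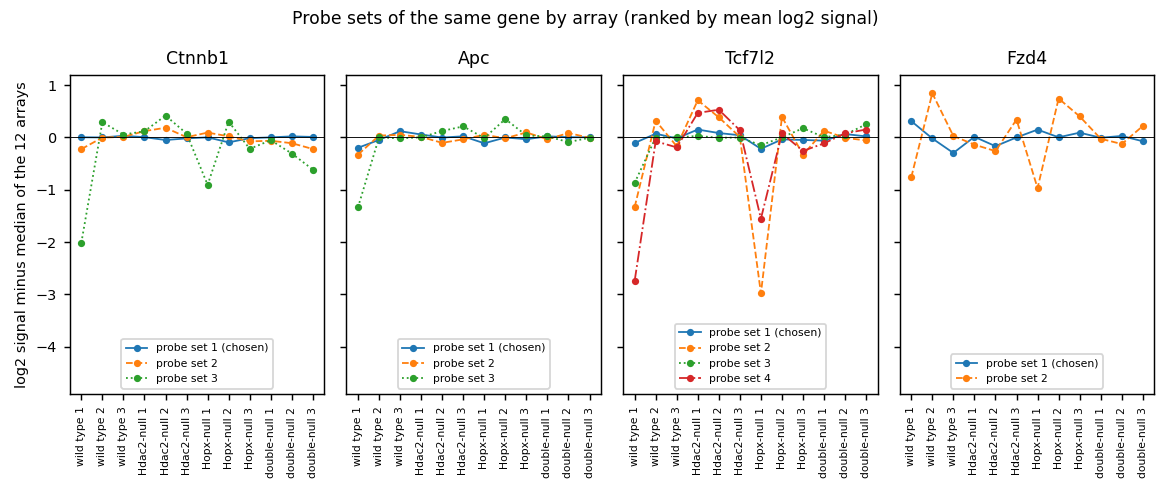
Log2 signal of each probe set above the floor minus its median over the 12 arrays (y axis, log2 units, no floor applied) by array (x axis) for Ctnnb1, Apc, Tcf7l2 and Fzd4; lines only join the points of 1 probe set. The chosen probe sets (blue) vary little, while secondary probe sets drop on wild type 1, to 107.7 signal units for the third of Ctnnb1, and several also on Hopx-null 1, to 44.3 for the second of Tcf7l2.

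Of the 36 genes, 25 were above the floor on at least 1 array and were tested, and 11 were at or below it on all 12. The 11 were the ligands Wnt2, Wnt2b and Wnt11, the secretion enzyme Porcn, the co-receptor Lrp5, the Dishevelled gene Dvl3, the scaffold Axin1, the inhibitor Dkk2, the receptor-level regulators Rspo3 and Rnf43, and Axin2. Axin2 is a widely used readout of beta-catenin activity, and its highest signal was 40.5, on Hdac2-null 2; Axin1 ran from 11.0 to 31.0. The other 9 ran from 4.21 to 11.9. These genes give no order between genotypes here, and a probe set at the floor does not show that its transcript was absent. Nkd1, induced by the pathway in many tissues, passed the floor on 1 array only: it read 110.4 on Hdac2-null 1 and 8.08 to 69.7 on the other 11.

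None of the 25 tested genes was called at an adjusted p under 0.05 in any of 8 comparisons. Across all 9667 genes tested with limma, the share called was itself small: 0.0207% in Hdac2-null against wild type, 0.0103% in Hopx-null against wild type and 0.031% in double-null against wild type. It was 0.0103% in double-null against Hdac2-null, 0.0207% in double-null against Hopx-null and 0% in the interaction, the departure of double-null from the sum of both single effects on the log2 scale. It was 0.0207% where the 6 arrays without Hdac2 were set against the 6 with it, and 0.0103% for the same split by Hopx. With shares this low, the lack of called genes among 25 is not a result about the Wnt genes. The comparisons share arrays, so their results are not independent of each other.

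The precision differed widely between genes. The standard error of a log2 difference against wild type ran from 0.03 for Ctnnb1 to 0.37 for Lef1. In Hdac2-null against wild type, the 95% interval of the difference lay within 1.5-fold in either direction for 18 of the 25 genes and reached past it for 7. The counts inside were 17 in Hopx-null and 18 in double-null against wild type. For those genes other than Nkd1, changes of 1.5-fold or more lie outside the interval. Nkd1 is counted inside, but it was raised to the floor on every array except Hdac2-null 1. Its interval therefore says nothing about such changes.

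**Figure D2:**
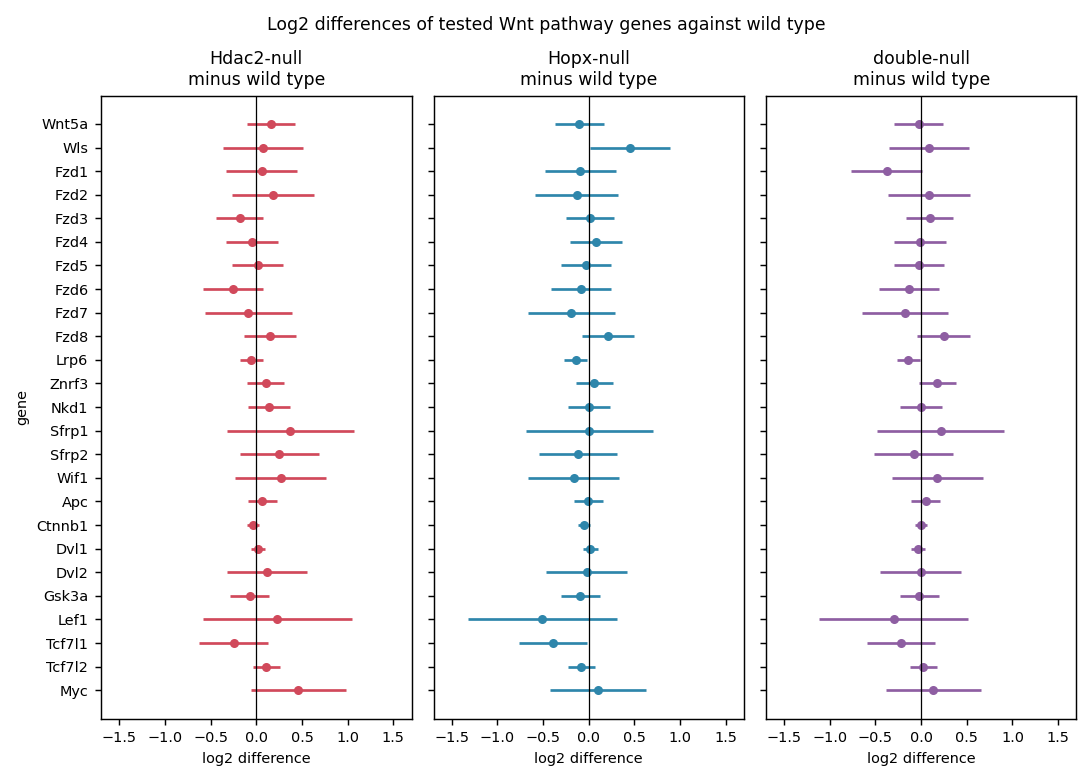
Log2 difference of each of the 25 tested genes from wild type (x axis, log2 units) in the 3 null groups, ordered by role from ligand to target; points are the fitted differences and bars their 95% intervals. Most intervals include 0, they are narrowest for Ctnnb1 (SE 0.03) and widest for Lef1 (SE 0.37), and Hdac2-null has 17 of 25 points above 0.

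Wnt5a was the only one of the 4 listed ligands above the floor; it signals mainly through routes that do not use beta-catenin. Its chosen probe set read 872.8, 615.8 and 761.8 in wild type, 833.5, 841.9 and 815.2 in Hdac2-null, 676.1, 696.9 and 701.6 in Hopx-null, and 672.2, 754.4 and 760.0 in double-null. All 3 Hdac2-null arrays were above every array of both groups without Hopx, while wild type spanned them all. Double-null was lower than Hdac2-null by 0.19 on the log2 scale (SE 0.12, adjusted p = 0.575), with no overlap. On a second Wnt5a probe set Hdac2-null was also above both groups without Hopx, with 467.2, 472.8 and 386.7 in Hdac2-null against 304.1, 249.8 and 239.3 in Hopx-null and 290.7, 336.4 and 331.9 in double-null. Wild type read 395.4, 304.4 and 330.0 on it. The Hopx-null arrays were thus all below wild type (log2 difference -0.38, SE 0.14, unadjusted p = 0.0226, adjusted p = 1), and Hdac2-null was higher than wild type by 0.37 with overlap (SE 0.14, unadjusted p = 0.0248, adjusted p = 0.865). In the fit over every probe set its difference between arrays without and with Hopx was -0.42 (SE 0.10, unadjusted p = 0.00157, adjusted p = 0.414), and between double-null and Hdac2-null -0.47 (SE 0.14, adjusted p = 0.33). For the chosen probe set the difference without and with Hopx was -0.15 (SE 0.09, adjusted p = 0.645), and -0.08 without wild type 1 and Hopx-null 1. The second probe set was singled out after its values were seen, and neither passed the test.

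Wls, which carries Wnts to the cell surface, read 841.5, 1030.3 and 835.1 in wild type, 794.9, 833.1 and 1269 in Hdac2-null, 1132, 1121 and 1454 in Hopx-null, and 875.6, 837.7 and 1187 in double-null. The Hopx-null arrays were all above wild type, and replicate 3 was the highest of each null group. Hopx-null exceeded wild type 1.37-fold (log2 difference 0.45, SE 0.20, unadjusted p = 0.0457, adjusted p = 1). Without wild type 1 and Hopx-null 1 the difference was 0.46. The other Wls probe sets above the floor overlapped between these groups, with differences of 0.18 (SE 0.28) for the second and 0.02 (SE 0.16) for the third. The second gave 0.33 without the same arrays.

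Of 10 listed receptors and co-receptors, 9 were tested. Against wild type, 4 were higher and 5 lower in Hdac2-null, 3 higher and 6 lower in Hopx-null, and 3 higher and 6 lower in double-null, and none passed the test. The co-receptor Lrp6, needed for signalling through beta-catenin, had the clearest separation. It read 5434, 4779 and 4762 in wild type and 4949.6, 4712 and 4741 in Hdac2-null, against 4297, 4572 and 4664 in Hopx-null and 4568, 4507 and 4483 in double-null. Every one of the 6 arrays without Hopx was below every one of the 6 with it, by 1.08-fold on average (log2 difference -0.12, SE 0.04, unadjusted p = 0.0171, adjusted p = 0.562). Across all genes, 0.403% were separated in that way and 8.73% had an unadjusted p under 0.05. The highest of the 12 values was on wild type 1 and the lowest on Hopx-null 1. The highest value without Hopx, 4664, and the lowest with it, 4712, were on other arrays. Leaving arrays out cannot undo a complete separation and can only change its size. Without wild type 1 and Hopx-null 1 the difference was -0.07 (adjusted p = 0.49). Against wild type, Lrp6 was lower by 0.14 in Hopx-null (SE 0.06, adjusted p = 1) and by 0.14 in double-null (SE 0.06, adjusted p = 0.669), and by 0.05 and 0.08 without the same arrays.

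Fzd1, a Frizzled receptor, read 1355, 1309 and 1855 in wild type, 1269, 1723 and 1702 in Hdac2-null, 1722, 1313 and 1196 in Hopx-null, and 1131, 1069.7 and 1243 in double-null. The double-null arrays were below every wild type and every Hdac2-null array and overlapped Hopx-null. The difference from Hdac2-null was -0.44 (1.35-fold lower, SE 0.18, unadjusted p = 0.0315, adjusted p = 0.404) and from wild type -0.38 (1.30-fold lower, SE 0.18, adjusted p = 0.671). The interaction, -0.34 (SE 0.25, adjusted p = 0.942), did not pass and was -0.12 without wild type 1 and Hopx-null 1, so a departure of double-null from the sum of both single losses was not shown. Over 25 other settings the difference from Hdac2-null ran from -0.58 to -0.36, with adjusted p from 0.0722 to 0.89.

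Fzd3, a receptor known for planar polarity and axon guidance, read 310.1, 375.2 and 399.4 in wild type, 296.6, 329.3 and 325.7 in Hdac2-null, 383.7, 352.8 and 353.1 in Hopx-null, and 419.5, 352.2 and 380.7 in double-null. Double-null lay above Hdac2-null without overlap, by 0.27 (1.21-fold, SE 0.12, unadjusted p = 0.0391, adjusted p = 0.413). The chosen Fzd3 probe set is of a type whose probes can match more than 1 transcript. A second probe set read 137.4, 144.2 and 110.0 in Hdac2-null and 154.0, 166.1 and 230.9 in double-null, also without overlap, and differed by 0.48 (SE 0.20, adjusted p = 0.401 over every probe set). The third overlapped between the groups, with a difference of 0.29 (SE 0.22).

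The other Frizzled genes varied among replicates as much as between genotypes. Fzd2 read 3918, 5667 and 6963 in wild type and ran from 4434 to 7271 in the null groups, and its differences from wild type were 0.18, -0.13 and 0.09 in Hdac2-null, Hopx-null and double-null (SE 0.20 each). Without wild type 1 and Hopx-null 1 they were -0.04, -0.29 and -0.14. Fzd4 had its highest value, 2211, and its lowest, 1450.3, both in wild type. Fzd8 read 415.8, 478.3 and 555.6 in wild type and 476.8 to 642.5 in the 9 null arrays, and was higher than wild type by 0.15, 0.21 and 0.25 in Hdac2-null, Hopx-null and double-null (SE 0.13 each, lowest adjusted p = 0.677). Without the same arrays these were 0.04, 0.10 and 0.14. Fzd6 was lower than wild type in each null group, by 0.25, 0.08 and 0.14 (SE 0.15 each), with overlapping arrays. Without the same arrays it was lower by 0.17 in Hdac2-null and 0.05 in double-null. In Hopx-null the sign turned without them, with 686.7 and 832.3 on Hopx-null 2 and 3 against 760.4 and 682.0 on wild type 2 and 3. Fzd7 ran from 460.6 on Hopx-null 2 to 867.6 on wild type 1. Fzd5 ran from 332.1 on Hopx-null 1 to 446.1 on wild type 2, and its group means differed by 0.03 or less from wild type on the log2 scale.

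Znrf3, the ubiquitin ligase that removes Frizzled receptors, was the tested member of 3 genes acting on receptor level. It read 1812, 2175 and 2356 in wild type, 2185, 2254 and 2332 in Hdac2-null, 2165, 2073 and 2347 in Hopx-null, and 2362, 2422 and 2346 in double-null. Double-null sat above Hdac2-null without overlap, by 0.07 (SE 0.09, adjusted p = 0.798). The lowest of the 12 values was on wild type 1.

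**Figure D3:**
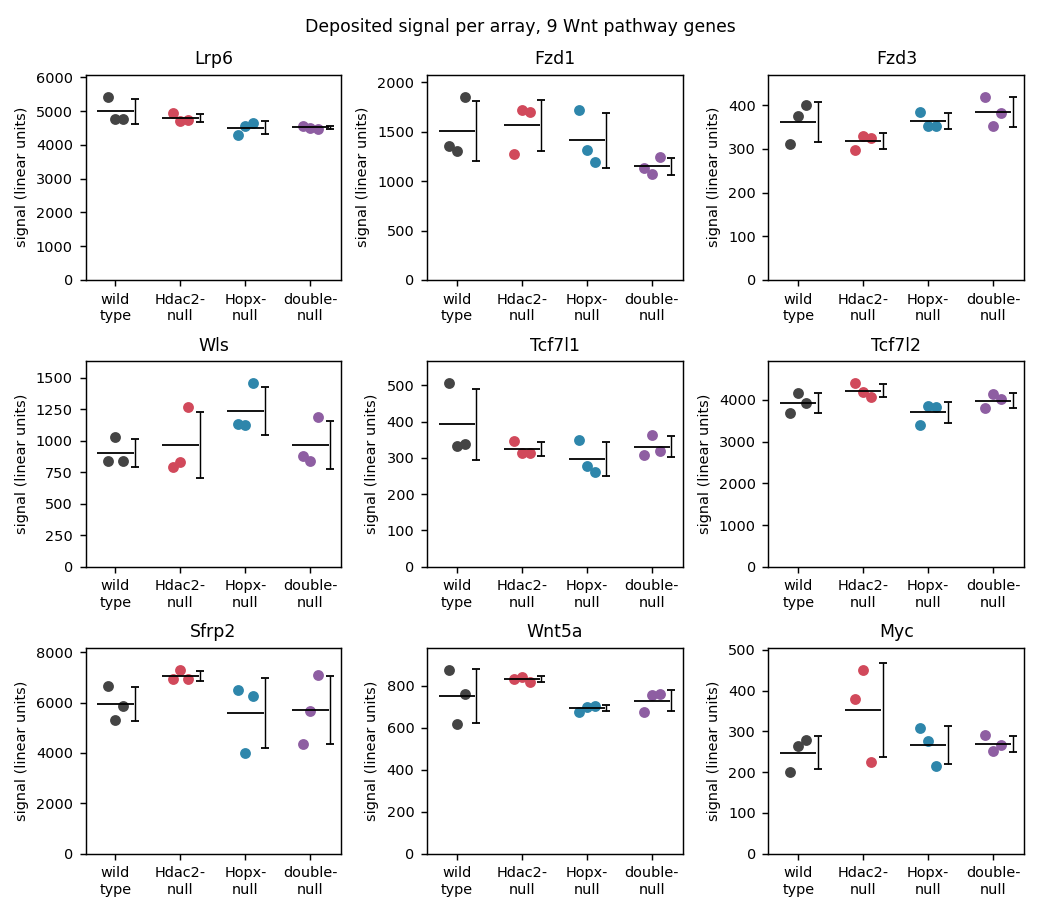
Deposited signal (y axis, linear units from 0) of 9 Wnt pathway genes by genotype (x axis); points are the 3 arrays of a group, horizontal lines the mean and bars 1 SD. All 6 Lrp6 points without Hopx lie below all 6 with it, double-null Fzd1 (1069.7 to 1243) lies below wild type and Hdac2-null, and the other panels overlap between most groups.

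Among the secreted and intracellular inhibitors, 4 of 5 were tested. Nkd1 was above the floor only on Hdac2-null 1, so the sign of its difference was set by the filter and it is not counted here. Sfrp1, Sfrp2 and Wif1 had a higher mean in Hdac2-null than in wild type, by 0.25 to 0.37 on the log2 scale, and none passed the test. Sfrp2, a decoy that binds Wnts, read 6645, 5317 and 5854 in wild type, 6932, 7279.5 and 6927 in Hdac2-null, 6500.5, 3988 and 6260.5 in Hopx-null, and 4367, 5643 and 7083 in double-null. Hdac2-null was above wild type without overlap, by 0.25 (1.19-fold, SE 0.20, adjusted p = 0.925), while both groups without Hopx were scattered over a wide range. Sfrp1, a related decoy, read 3532, 2236 and 3682 in wild type, 3884, 4550.5 and 3563 in Hdac2-null, 4786, 1897 and 3253 in Hopx-null, and 4670.2, 3633 and 2675 in double-null. Its difference between Hdac2-null and wild type was 0.37 (SE 0.32, adjusted p = 0.925), and its groups overlapped. The fourth Sfrp1 probe set was higher in double-null (220.8, 166.8 and 209.8) than in wild type (125.7, 86.4 and 157.0) without overlap, by 0.73 (SE 0.32, adjusted p = 0.65 over every probe set), where the chosen one gave 0.21 (SE 0.32), the second -0.08 (SE 0.36) and the third 0.16 (SE 0.37). The third gave -0.19 without wild type 1.

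Wif1, a secreted Wnt-binding protein, read 287.7, 294.9 and 365.6 in wild type, 367.4, 519.6 and 281.8 in Hdac2-null, 281.6, 314.2 and 250.1 in Hopx-null, and 328.0, 296.6 and 459.6 in double-null. Its difference of 0.26 between Hdac2-null and wild type (SE 0.23, adjusted p = 0.925) was 0.03 without Hdac2-null 2. The Nkd1 difference of 0.14 (SE 0.10) rested on its single array above the floor. In double-null against Hdac2-null the differences were -0.16 for Sfrp1, -0.33 for Sfrp2 and -0.09 for Wif1.

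Of 7 transducers, 5 were tested, and their differences from wild type were small on the chosen probe sets. Ctnnb1, which encodes beta-catenin, read 21408, 21360.1 and 21828 in wild type, 21434, 20645 and 21094 in Hdac2-null, 21382, 20007 and 21159 in Hopx-null, and 21378, 21662 and 21499.7 in double-null. The differences from wild type were -0.03, -0.05 and -0.001 in those 3 groups (SE 0.03 each), with 95% intervals that stayed between -0.11 and 0.06. The second Ctnnb1 probe set gave 0.18 (SE 0.08, adjusted p = 0.865 over every probe set) for Hdac2-null against wild type. It gave -0.24 (SE 0.08, unadjusted p = 0.0166, adjusted p = 0.364) for double-null against Hdac2-null. Its interaction was -0.32 (SE 0.12, unadjusted p = 0.0202, adjusted p = 0.951). The third Ctnnb1 probe set, low on wild type 1, gave 0.76 (SE 0.52) for Hdac2-null against wild type in place of -0.03. It did not pass the test (adjusted p = 0.865 over every probe set) and was 0.03 without wild type 1.

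Apc, a scaffold of the destruction complex, read 3005, 3337 and 3745 in wild type and 3191 to 3584 in the 9 null arrays. Double-null (3499, 3456 and 3457) was above Hopx-null (3191, 3445 and 3368) without overlap, by 0.06 (SE 0.07, adjusted p = 0.839). Gsk3a, one of the kinases of that complex, read 1640.1, 1366 and 1529.5 in wild type and 1326 to 1577 in the null arrays. Dvl1 read 8019.9, 8268 and 8219 in wild type and 7737 to 8449.8 in the null arrays, with differences of 0.02, 0.02 and -0.04 (SE 0.04 each). Dvl2 ran from 269.8 to 448.1 in Hopx-null alone and spanned the other groups.

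Of 4 TCF/LEF factors, 3 were tested; Tcf7l1, mainly a repressor, and Tcf7l2 and Lef1, which can activate targets with beta-catenin. Tcf7l2 read 3675, 4154 and 3910.1 in wild type, 4391, 4192 and 4072 in Hdac2-null, 3402, 3857 and 3826 in Hopx-null, and 3791, 4139 and 4009.7 in double-null. Arrays without Hdac2 exceeded those with it by 0.11 (1.08-fold, SE 0.05, unadjusted p = 0.0433, adjusted p = 0.541), with overlap. Its 2 lowest values were on Hopx-null 1 and wild type 1, and without both arrays the difference was 0.06 (adjusted p = 0.693). The other Tcf7l2 probe sets gave 0.73 (SE 0.40), 0.20 (SE 0.15) and 0.82 (SE 0.32) for the same comparison, and those with the largest differences were lowest on the same arrays. Without both arrays these were 0.14, 0.01 and 0.32.

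Tcf7l1 read 505.0, 332.6 and 339.0 in wild type, 346.1, 312.9 and 312.8 in Hdac2-null, 350.0, 277.2 and 262.1 in Hopx-null, and 308.2, 363.5 and 319.4 in double-null. Its value on wild type 1 stood above the other 11. Hopx-null was lower than wild type by 0.39 (1.31-fold lower, SE 0.17, unadjusted p = 0.0434, adjusted p = 1), with overlap, and by 0.19 without wild type 1. Lef1 read 277.2, 148.0 and 247.9 in wild type, 277.7, 286.8 and 206.4 in Hdac2-null, 238.2, 35.4 and 178.6 in Hopx-null, and 134.1, 178.1 and 228.7 in double-null. Hopx-null 2 was below the floor and was raised to it. The difference between arrays without and with Hopx was -0.52 (SE 0.26, adjusted p = 0.604), and -0.30 without Hopx-null 2.

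Myc, a growth regulator and a Wnt target in several tissues, was the tested one of the 2 listed targets; Axin2 was not tested. It read 201.4, 264.2 and 277.5 in wild type, 380.1, 449.7 and 225.2 in Hdac2-null, 307.2, 277.1 and 215.0 in Hopx-null, and 291.5, 252.3 and 265.7 in double-null. Hdac2-null held both the 2 highest values and 1 of the 3 lowest. The difference from wild type was 0.46 (1.38-fold, SE 0.24, adjusted p = 0.925), and 0.25 without Hdac2-null 2.

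**Figure D4:**
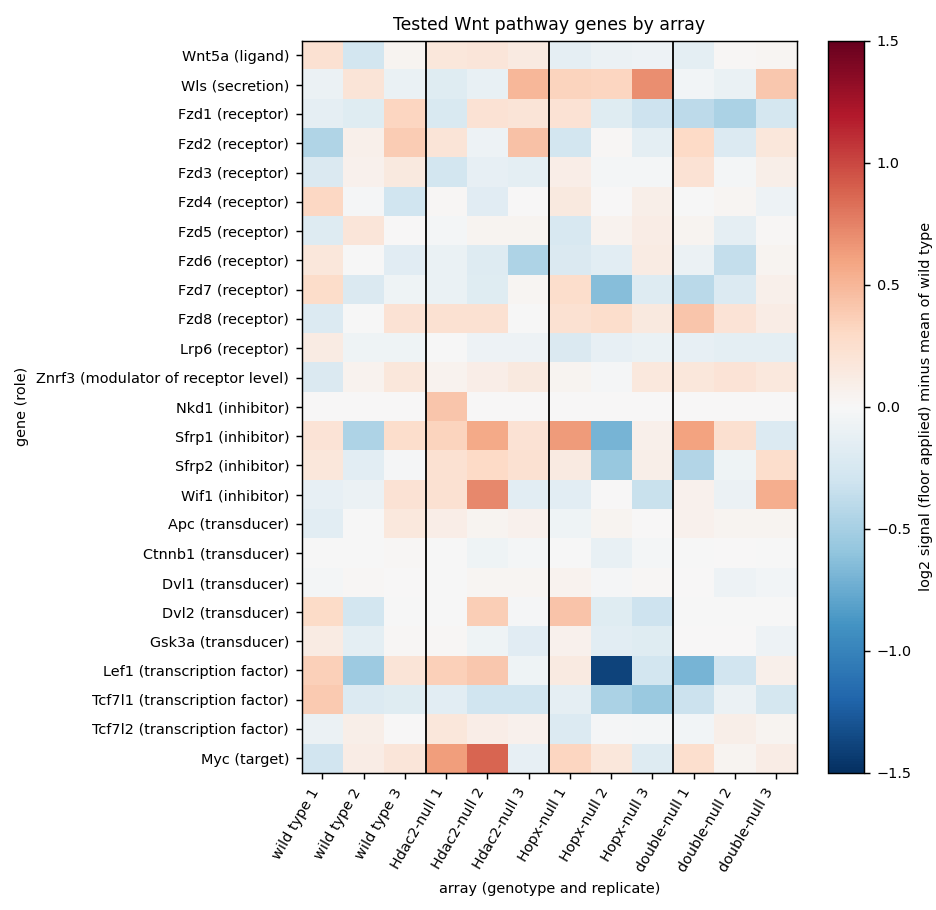
Log2 signal with the floor applied, minus the mean of the 3 wild type arrays (colour, log2 units), for the 25 tested genes (rows, by role) on the 12 arrays (columns); vertical lines part the genotypes. No block of 1 colour fills a genotype: single arrays stand out, such as Lef1 on Hopx-null 2 (35.4 signal units, below the floor) and Tcf7l1 on wild type 1 (505.0).

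In Hdac2-null against wild type, 17 of the 25 had a higher mean and 8 a lower one, with a median of 0.07 against -0.01 over all genes, of which 44.1% were higher. The 17 include Nkd1, whose sign the filter set. None had an unadjusted p under 0.05, where 5.11% of all genes did, and 1 did not overlap (Sfrp2), where 9.58% did not. In the same groups the summed signal of 8 fibroblast markers, all above the floor, was 59344 to 60993 in Hdac2-null against 62392 to 64298 in wild type. Of the 8, Col3a1 and Pdgfra were lower without overlap, the others overlapped, and Fbln1 had a higher mean in Hdac2-null. The summed signal of 6 liver markers, 3 of them above the floor on some array, was 82.5 to 621.2 against 53.5 to 71.5. Its highest value was on Hdac2-null 3, and no liver marker was above the floor on Hdac2-null 1. That of 5 erythroid markers, 2 of them above it on some array, was 469.3 to 1525 against 162.1 to 394.5. Most of that difference was Hbb-y, at 218.8 to 1209 against 4.84 to 122.7, while Alas2 overlapped. The summed signal of 5 skeletal muscle markers, 2 of them above the floor on some array, was 720.0 to 1079 against 314.2 to 599.3. Tnni2 alone made that difference, at 438.9 to 925.7 against 27.7 to 84.6. Myl1 went the other way with overlap, at 140.0 to 267.5 against 255.7 to 557.9. The part of all these markers in the Wnt values was not tested, and in bulk tissue fewer cells of a type and less RNA per cell cannot be told apart. The median was 0.02 without wild type 1, 0.03 without wild type 2 or Hdac2-null 2, and 0.11 without wild type 3.

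In Hopx-null against wild type, 8 had a higher mean and 16 a lower one (median -0.05, and -0.002 over all genes). An unadjusted p under 0.05 was reached by 1 upward (Wls) and 2 downward (Lrp6 and Tcf7l1), where 2.65% of all genes reached it, and 2 did not overlap (Wls and Lrp6), where 4.43% did not. With a term for Xist, or with array weights, none of these genes reached an unadjusted p under 0.05 in this comparison. The median was -0.02 without Hopx-null 2, -0.03 without wild type 3 and -0.09 without wild type 2.

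In double-null against wild type, 10 were higher and 14 lower (median -0.01, and -0.01 over all genes); 1 had an unadjusted p under 0.05 (Lrp6), where 7.31% of all genes did, and 2 did not overlap (Lrp6 and Fzd1), where 14.9% did not. With the term for Xist 15 were higher and the median was 0.01. Leaving out single arrays moved the median by more than 1.5 times for wild type 2 and 3, Hdac2-null 1 and double-null 1, within -0.02 and 0. The skeletal muscle sum was 624.3 to 734.7 in double-null, above wild type, and its part was not tested. Tnni2 alone was higher, at 363.8 to 551.3 against 27.7 to 84.6, while Myl1 was lower, at 125.6 to 246.8 against 255.7 to 557.9.

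In double-null against Hdac2-null, 9 were higher and 16 lower, Nkd1 among the latter (median -0.08, and -0.004 over all genes). The median was -0.05 without double-null 1 or Hdac2-null 2 and -0.03 without double-null 2 or Hdac2-null 3. An unadjusted p under 0.05 was reached by 2, Fzd3 upward and Fzd1 downward, where 11.3% of all genes reached it. No overlap was seen for 2 upward (Fzd3 and Znrf3) and 3 downward (Fzd1, Lrp6 and Wnt5a), where 25.6% of all genes did not overlap. In the same groups the summed signal of 8 endothelial markers, all above the floor, was 14235 to 14668 in double-null against 15425 to 15633 in Hdac2-null. Emcn (1187 to 1392 against 1642 to 1856), Kdr (1318 to 1498 against 1662 to 1678) and Tie1 were lower without overlap. Pecam1, Tek and Egfl7 overlapped, and Cdh5 and Eng had a higher mean in double-null, with overlap. The summed signal of the erythroid markers was 156.3 to 217.8 against 469.3 to 1525, with Hbb-y at 16.2 to 64.7 against 218.8 to 1209 and Alas2 overlapping. Their part in the Wnt values was not tested.

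In double-null against Hopx-null, 19 were higher and 5 lower (median 0.04, and -0.01 over all genes). None reached an unadjusted p under 0.05, where 8.13% of all genes did, and 1 did not overlap (Apc), where 14.3% did not. The median was 0.01 without double-null 1, 0.02 without Hopx-null 2, and 0.06 without double-null 2, Hopx-null 1 or Hopx-null 3. The summed signal of 8 leukocyte markers, 5 of them above the floor on some array, was 11675 to 13483 in double-null against 14042 to 15696 in Hopx-null. Most of that difference was C1qb, at 7019 to 8483 against 8937 to 10261. Csf1r, Fcer1g and Tyrobp overlapped, and Lyz2 went the other way with overlap, at 131.6 to 245.0 against 109.8 to 172.0. The summed signal of the skeletal muscle markers was 624.3 to 734.7 against 184.1 to 430.4. The skeletal muscle difference was that of Tnni2, at 363.8 to 551.3 against 23.3 to 133.7, while Myl1 overlapped. The part of these markers was not tested.

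For the interaction, 10 values were above 0 and 15 below (median -0.01, between -0.08 without Hopx-null 2 and -0.001 over fits without 1 array, and 0.01 with the Xist term), and none had an unadjusted p under 0.05, where 4.18% of all genes did. That median moved by more than 1.5 times in every fit without 1 array other than those without wild type 1 or Hopx-null 1. Without Hdac2 against with it, 15 genes were higher and 10 lower (median 0.06, and -0.01 over all genes). Only Tcf7l2 had an unadjusted p under 0.05, where 8.96% of all genes did, and none was fully separated, where 0.61% of all genes were. With the Xist term no Wnt gene had an unadjusted p under 0.05 there. The median was 0.01 without Hdac2-null 2, 0.03 without Hopx-null 2, and 0.04 without wild type 1, Hdac2-null 1 or Hopx-null 3. The skeletal muscle sum was 624.3 to 1079 without Hdac2 against 184.1 to 599.3 with it, and its part was not tested. Tnni2 alone made that difference, at 363.8 to 925.7 against 23.3 to 133.7, while Myl1 overlapped. Without Hopx against with it, 6 were higher and 19 lower (median -0.07, and -0.01 over all genes, of which 47.4% were higher). Lrp6 alone had an unadjusted p under 0.05, where 8.73% of all genes did. That median was -0.02 without Hdac2-null 2 and -0.03 without Hopx-null 2 or without wild type 3. The 15 below 0 in the interaction, the 15 higher without Hdac2 and the 19 lower without Hopx each include Nkd1, whose sign the filter set.

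The further probe sets gave the sign of the chosen one for 13 of 17 in Hdac2-null against wild type, 9 of 17 in Hopx-null against wild type and 13 of 17 in double-null against wild type. The counts were 15 of 17 without and with Hdac2 and 11 of 17 without and with Hopx. They were 10 of 17 in double-null against Hdac2-null, 12 of 17 in double-null against Hopx-null and 14 of 17 in the interaction. The wild type and Hopx-null arrays with low secondary probe sets are on the side with Hdac2. Low values there raise the difference without and with Hdac2, and no count without those arrays is given. The 15 of 17 is therefore not independent support for a higher signal without Hdac2. None of the 17 passed the test in the fit over every probe set.

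A wider list of 88 Wnt genes that are not among the 37 was written with the earlier results known: kinases, polarity genes, other ligands, inhibitors, co-repressors and targets. Of these, 50 were tested and none was called in any comparison. In Hdac2-null against wild type 26 were higher and 24 lower (median 0.01), in Hopx-null 22 and 28 (median -0.02) and in double-null 21 and 29 (median -0.01). The genes named next were picked by an unadjusted p under 0.05. In Hdac2-null against wild type 1 upward and 1 downward reached it, where 5.11% of all genes did. In double-null against Hdac2-null 3 upward and 1 downward did, where 11.3% of all genes did. There 5 upward and 4 downward did not overlap, where 25.6% of all genes did not. Frzb, a secreted Wnt inhibitor related to Sfrp1, read 261.7, 291.4 and 241.4 in wild type, 209.7, 184.0 and 240.1 in Hdac2-null, 250.8, 275.2 and 248.8 in Hopx-null, and 290.4, 255.6 and 326.8 in double-null. Hdac2-null was the low group, below both wild type and double-null without overlap. Frzb differed by -0.33 between Hdac2-null and wild type (SE 0.13, adjusted p = 0.918) and by 0.46 between double-null and Hdac2-null (SE 0.13, unadjusted p = 0.00466, adjusted p = 0.368), with an interaction of 0.50 (SE 0.18, adjusted p = 0.942).

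Wnt5b, a ligand close to Wnt5a, read 362.7, 414.1 and 566.1 in wild type, 569.2, 410.2 and 650.9 in Hdac2-null, 421.9, 406.1 and 382.8 in Hopx-null, and 308.9, 382.4 and 402.0 in double-null. Double-null was below Hdac2-null without overlap, by 0.56 (SE 0.20, unadjusted p = 0.0167, adjusted p = 0.378). Celsr1, a polarity cadherin, was lower without Hdac2 than with it by 0.38 (SE 0.15, adjusted p = 0.534), with 349.6 to 525.4 against 430.8 to 746.6. The casein kinase gene Csnk1d was higher in Hdac2-null (8917 to 9063) than in wild type (6598 to 8628), by 0.20 (SE 0.09, adjusted p = 0.925), and by 0.08 without wild type 1. The co-repressor Tle4 was lower in Hopx-null (4246 to 4614) than in wild type (4662 to 5096), by 0.14 (SE 0.06, adjusted p = 1). Csnk1a1, Daam1 and Daam2, a kinase and a pair of formins that act with Dishevelled, also had an unadjusted p under 0.05 in some comparison, with differences of 0.30 or less in size and a lowest adjusted p of 0.41.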

How the data were processed

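Total RNA of mouse ventricles was labelled as biotinylated cRNA, per the labels' protocols. The authors deposited 1 linear intensity per probe set and array (45101 probe sets). MAS5 is named in the submitters' processing notes. Since 48.64% of values lay within 1 unit of 4.5 and upper quartiles ran from 557.3 to 586.0, unlike that method, the summary method is not settled. The table was used as deposited. Signals were raised to a floor of 82.5 (0.1 times the mean 2% trimmed mean, leaving out 64 control probe sets) and log2 transformed, which can shrink differences near it. Of 34945 probe sets naming 1 gene, the one with the highest mean represented each gene. Genes under the 40th percentile (4.76), or at the floor on all 12 arrays, were left out, and 9667 were tested. limma 3.58.1 in R 4.3.3 fitted 1 coefficient per genotype over 12 arrays (8 residual degrees of freedom, intensity trend), with Benjamini-Hochberg adjustment in each comparison. Every p is from limma. The fit was tested on simulated data. The number of arrays limits the precision (median SE 0.11).

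The Wnt genes, lists and tests were chosen with earlier results of these data known. Genes with an unadjusted p under 0.05, those brightest in their role and Axin2, Lef1, Nkd1, Myc and Ctnnb1 were named with values. Wild-type and Hopx-null arrays of 1 number varied together (r = 0.423, 0.419 and 0.154). So did Hdac2-null and Hopx-null arrays (0.206, 0.17 and 0.122) and Hdac2-null and double-null arrays (0.251, 0.0961 and 0.254). Other pairs of groups did not in all 3 numbers. The highest r, 0.501, was between arrays of different numbers, wild type 3 and Hdac2-null 2. Other floors, filters, weights, a replicate block, a term for Xist, every probe set and fits without single arrays were tried.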

Additional observations from a re-analysis of the deposited data

How the results depend on the processing

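In 197 fits under 25 other settings, no Wnt gene was called in any comparison, with the replicate block included (0 called). The lowest adjusted p was 0.0515, with array weights in double-null against Hdac2-null, where 951 of 9667 genes were called against 1. In that fit 10 of the 25 Wnt genes had an unadjusted p under 0.05 against 2. The share of all genes at that unadjusted p was not counted with array weights. The 10 are therefore not a result about the Wnt genes. The 14 gene differences followed through these settings kept their sign in each. They were picked from this same fit, among them all with an unadjusted p under 0.05, and the settings reuse its arrays. The kept signs are therefore not independent support. Over the 25 tested genes and 8 comparisons, 163 of 200 signs were kept with array weights and 161 of 200 without wild type 1 and Hopx-null 1. The replicate block kept 200 of 200, but each number occurs once per genotype, so that block cannot change a difference. It could change only the standard errors and p-values. Counts of all genes called moved by more than 1.5 times as follows. Without wild type 3 they were 4 against 2 in Hdac2-null against wild type, 8 against 3 in double-null against wild type, 1 against 0 in the interaction and 27 against 2 without and with Hdac2. Over every probe set they were 6 against 3 in double-null against wild type, 2 against 1 in Hopx-null against wild type, 3 against 1 in double-null against Hdac2-null, 4 against 2 without and with Hdac2 and 2 against 1 without and with Hopx. With no floor they were 1 against 2 in Hdac2-null against wild type, 2 against 1 in double-null against Hdac2-null, 1 against 2 in double-null against Hopx-null and 2 against 1 without and with Hopx. Without and with Hdac2 they were 5 with array weights or a floor 0.5 times as high, and 4 without Hopx-null 3. Without and with Hopx they were 2 without wild type 2. In double-null against Hopx-null they were 1 against 2 with the replicate block, with a floor 0.5 or 2 times as high, on only the groups compared, and without wild type 1 or 2, Hdac2-null 2, Hopx-null 2 or 3, or double-null 2 or 3; they were 5 without wild type 1 and Hopx-null 1. Fits on only the groups compared give no value for the interaction or for the splits by 1 gene. With 3 arrays per group and a floor that hides 11 of the 36 genes, small changes were not detectable.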
